A study of Mus musculus with 8 samples.

Results

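The collagen chain genes are the 44 genes, of 54752 in the count tables, whose symbol has the form Col, a type number, the letter a and a chain number. They were grouped by the type number into 11 fibrillar, 8 basement membrane, 6 beaded and 19 other genes. The membership followed the symbols alone, and the family was taken up with earlier results of these data known. Counts came from RNA-seq libraries made from right cerebral cortex of adult male C57BL/6 mice (C57BL/6 J in the methods) of WT genotype, 1 mouse per library, taken 3 weeks after surgery. In the BCAS group (4 mice), microcoils were placed around both common carotid arteries, with the narrower coil on the right side, which reduces blood flow to the brain. The Sham group (4 mice) had the same operation without coils. The comparison asks which collagen chains differ in the hypoperfused cortex, and expression is given as CPM, the usual counts-per-library-total unit, with library sizes scaled by edgeR's TMM method.

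Collagens are extracellular proteins of triple-helical chains, and each chain is encoded by its own gene. Fibrillar collagens form the banded fibrils of connective tissue, collagen IV forms the sheet of basement membranes, and collagen VI forms beaded filaments. In the healthy brain, collagen is found mainly in the meninges and around blood vessels, while some transmembrane and fibril-associated chains are made by neurons.

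The libraries held 16759364 to 21794435 counts, and 3 counts corresponded to at most 0.187 CPM on the TMM-scaled library sizes. Cortical neuron markers were present in every library, with Slc17a7, the vesicular glutamate transporter of cortical excitatory neurons, at 1542 to 1684 CPM in Sham mice and 483 to 1313 CPM in BCAS mice. Sham mouse 3 stood apart in choroid plexus markers, with a sum of 781 CPM over 7 genes against 16.2 to 72.2 CPM in the other 7 libraries. Striatal markers were highest in BCAS mouse 4, at 623.6 CPM against 222.8 to 389.5 CPM elsewhere. BCAS mouse 2 lay nearest to the Sham mice for all 16 collagen genes that rose. In bulk tissue, fewer or more cells of a type cannot be told apart from less or more RNA per cell.

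The promoter windows of 4 genes that rose in BCAS mice are shown first, because they are the members with the largest fold changes for which a window was at hand (Col3a1 and Col1a2) and a pair of genes that start next to each other and rose together (Col4a5 and Col4a6). Each window runs 5′ to 3′ on the gene's strand from 250 bases before to 50 bases after the RefSeq start (build GRCm38.p6). The windows are chr1:45311288-45311587 on the plus strand for Col3a1, chr6:4505368-4505667 on the plus strand for Col1a2, chrX:141475169-141475468 on the plus strand for Col4a5 and chrX:141474027-141474326 on the minus strand for Col4a6. Capitals mark the motifs that were searched on either strand. The first is the TATA box, with the letters TATAAA. The next is the CCAAT box, searched by those 5 letters. Another is the GC box, which was searched as GGGCGG. The core of the interferon-stimulated response element was also searched, and none of the 4 windows held it.
Col3a1: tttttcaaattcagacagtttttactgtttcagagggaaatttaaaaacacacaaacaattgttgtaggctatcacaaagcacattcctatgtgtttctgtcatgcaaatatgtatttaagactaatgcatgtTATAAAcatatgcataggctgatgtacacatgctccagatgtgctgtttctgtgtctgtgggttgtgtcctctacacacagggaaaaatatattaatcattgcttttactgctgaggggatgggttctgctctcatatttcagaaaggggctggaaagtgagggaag
Col1a2: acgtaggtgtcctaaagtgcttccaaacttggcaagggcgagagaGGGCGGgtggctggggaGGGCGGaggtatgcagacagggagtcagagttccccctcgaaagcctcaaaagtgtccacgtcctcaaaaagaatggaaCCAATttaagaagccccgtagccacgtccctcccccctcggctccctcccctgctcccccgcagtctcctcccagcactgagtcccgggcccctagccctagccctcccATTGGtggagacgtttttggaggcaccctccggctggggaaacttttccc
Col4a5: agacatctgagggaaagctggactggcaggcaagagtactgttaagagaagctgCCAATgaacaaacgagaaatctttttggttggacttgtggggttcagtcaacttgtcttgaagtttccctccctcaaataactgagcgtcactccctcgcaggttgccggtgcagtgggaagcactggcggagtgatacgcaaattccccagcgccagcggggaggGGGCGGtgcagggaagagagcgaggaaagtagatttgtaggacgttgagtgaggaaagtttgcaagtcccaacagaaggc
Col4a6: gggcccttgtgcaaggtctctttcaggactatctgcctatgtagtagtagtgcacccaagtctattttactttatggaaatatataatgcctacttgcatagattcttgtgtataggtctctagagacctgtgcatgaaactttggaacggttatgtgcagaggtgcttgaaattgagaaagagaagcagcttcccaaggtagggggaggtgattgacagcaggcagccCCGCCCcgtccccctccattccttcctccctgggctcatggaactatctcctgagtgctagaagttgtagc

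The Col3a1 window held 37.7% G and C and 1 TATAAA, and none of the other letters searched. The Col1a2 window held 61% G and C, both box types other than TATAAA, and no TATAAA. Among 38 windows of 35 members, TATAAA was found in 5, CCAAT in 13 and GGGCGG in 23, and the shares over all 32851 mouse windows of this length were 13.6%, 37.4% and 35.7%. The interferon-stimulated response element core was found in 0 of the 38 windows and in 3.44% of all windows. These matches describe letters in a window and say nothing of factors bound there.

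Of the 44 genes, 43 had enough counts to enter edgeR's quasi-likelihood test. Adjusted p-values are those of Benjamini and Hochberg over all 17136 tested genes. A gene was called changed when its log2 fold change was above 1 in size and its adjusted p was under 0.05. In BCAS mice, 16 of the 43 collagen genes rose and 0 fell, which is 37.2% of them, whereas 11.0% of all tested genes were called higher and 1.28% lower. At an adjusted p under 0.05 alone, 23 collagen genes were higher and 1, Col19a1, was lower, against 19.2% and 12.8% of all tested genes. In edgeR's unadjusted test, 29 were higher and 1 was lower at a p under 0.05, a setting without a count over all genes. DESeq2 called 17 higher and 0 lower (1948 and 270 of all genes). From limma-voom came 12 higher and 1 lower (1629 and 295 of all genes). The median log2 fold change was 0.88 over the collagen genes and -0.01 over all tested genes. The CPM of the groups did not overlap for 18 collagen genes that were higher and 1 that was lower in BCAS mice, against 18.4% and 16.4% of all tested genes. Against the stricter null hypothesis of an absolute log2 fold change of at most 1 (glmTreat), 8 of the 43 passed, as did 744 of all 17136 tested genes. Leaving out BCAS mouse 2 raised the count of called collagen genes to 22, and that of all called genes from 2097 to 2967.

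By class, 6 of 11 fibrillar genes rose (median log2 fold change 1.63), as did 5 of 8 basement membrane genes (1.9004), 2 of 6 beaded genes (0.92) and 3 of 18 tested other genes (0.60). The share of the other class, 16.7%, is near the 11.0% of all tested genes, and its count was 6 (5 higher and 1 lower) without BCAS mouse 2. The 2 classes with the larger medians were thus those of the fibrils and of the basement membrane. Under glmTreat, 3 of the basement membrane genes and none of the beaded or other genes passed.

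**Figure D1:**
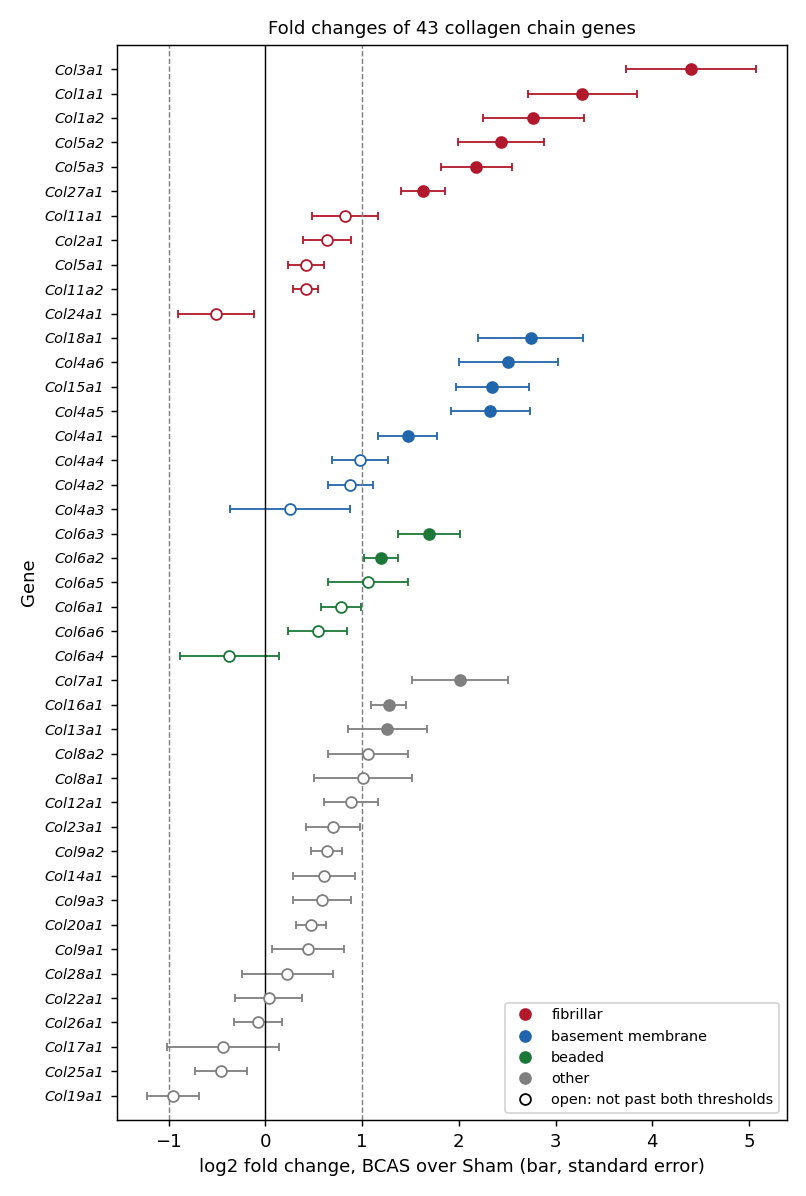
Log2 fold change (BCAS over Sham, horizontal axis) of the 43 tested collagen chain genes with its standard error, grouped by class and ordered by size, with filled points for called genes and dashed lines at an absolute value of 1. The filled points are 6 fibrillar, 5 basement membrane, 2 beaded and 3 other genes, all on the right, and Col19a1 lies lowest.

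Among the fibrillar genes, Col3a1 had the largest change of all members. Col3a1 (ENSMUSG00000026043.18, chromosome 1, 45311538 to 45349706, plus strand) encodes the chain of type III collagen, a fibril collagen of distensible tissue such as vessel walls. It measured 3.92, 6.73, 5.37 and 6.81 CPM in Sham mice 1 to 4 and 208.4, 17.7, 163.6 and 91.5 CPM in BCAS mice 1 to 4. Every BCAS mouse was above every Sham mouse, with mouse 2 lowest. The log2 fold change was 4.40 ± 0.67 (SE, adjusted p = 0.00347), a 21.1-fold difference.

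Col1a1 (ENSMUSG00000001506.10, chromosome 11, 94936224 to 94953042, plus strand) and Col1a2 (ENSMUSG00000029661.16, chromosome 6, 4504814 to 4541544, plus strand) encode the chains of type I collagen, the main collagen of scar and connective tissue. Col1a1 measured 11.1, 14.6, 12.2 and 11.9 CPM in Sham mice and 195.4, 26.1, 186.3 and 73.2 CPM in BCAS mice. Its log2 fold change was 3.27 ± 0.56 (SE, adjusted p = 0.00521). Col1a2 measured 20.5, 32.0, 22.4 and 27.5 CPM in Sham mice and 258.7, 40.3, 275.0 and 122.8 CPM in BCAS mice. In both genes the groups were apart, BCAS mice 1 and 3 were high and BCAS mouse 2 was low. The log2 fold change of Col1a2 was 2.77 ± 0.52 (SE, adjusted p = 0.00725).

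Type V collagen, a regulatory collagen within type I fibrils, differed between its chains. Col5a2 measured 5.05, 4.49, 4.51 and 5.06 CPM in Sham mice and 39.7, 8.28, 37.7 and 17.8 CPM in BCAS mice, so that the groups did not overlap (log2 fold change 2.44 ± 0.44 SE, adjusted p = 0.00641). Col5a3 measured 1.76, 2.37, 2.57 and 1.93 CPM in Sham mice and 17.0, 4.83, 9.11 and 8.10 CPM in BCAS mice, also without overlap (2.18 ± 0.37 SE, adjusted p = 0.00486). Col5a1 did not pass the test, with 16.7 to 23.8 CPM in Sham mice and 19.7 to 32.9 CPM in BCAS mice (log2 fold change 0.42, adjusted p = 0.104).

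Col27a1, a fibrillar collagen of cartilage, measured 5.84, 4.86, 6.74 and 6.27 CPM in Sham mice and 25.3, 12.1, 16.1 and 19.8 CPM in BCAS mice, with the groups apart (log2 fold change 1.63 ± 0.23 SE, adjusted p = 0.00271). Of the other fibrillar genes, Col11a2 passed only the threshold on the adjusted p (0.42, adjusted p = 0.038). Col2a1, the cartilage collagen, was at 0.93 to 1.82 CPM in Sham mice and 1.903 to 2.39 CPM in BCAS mice, which do not overlap, but its adjusted p was 0.0781. Col11a1 (0.82) and Col24a1 (-0.51) did not pass.

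**Figure D2:**
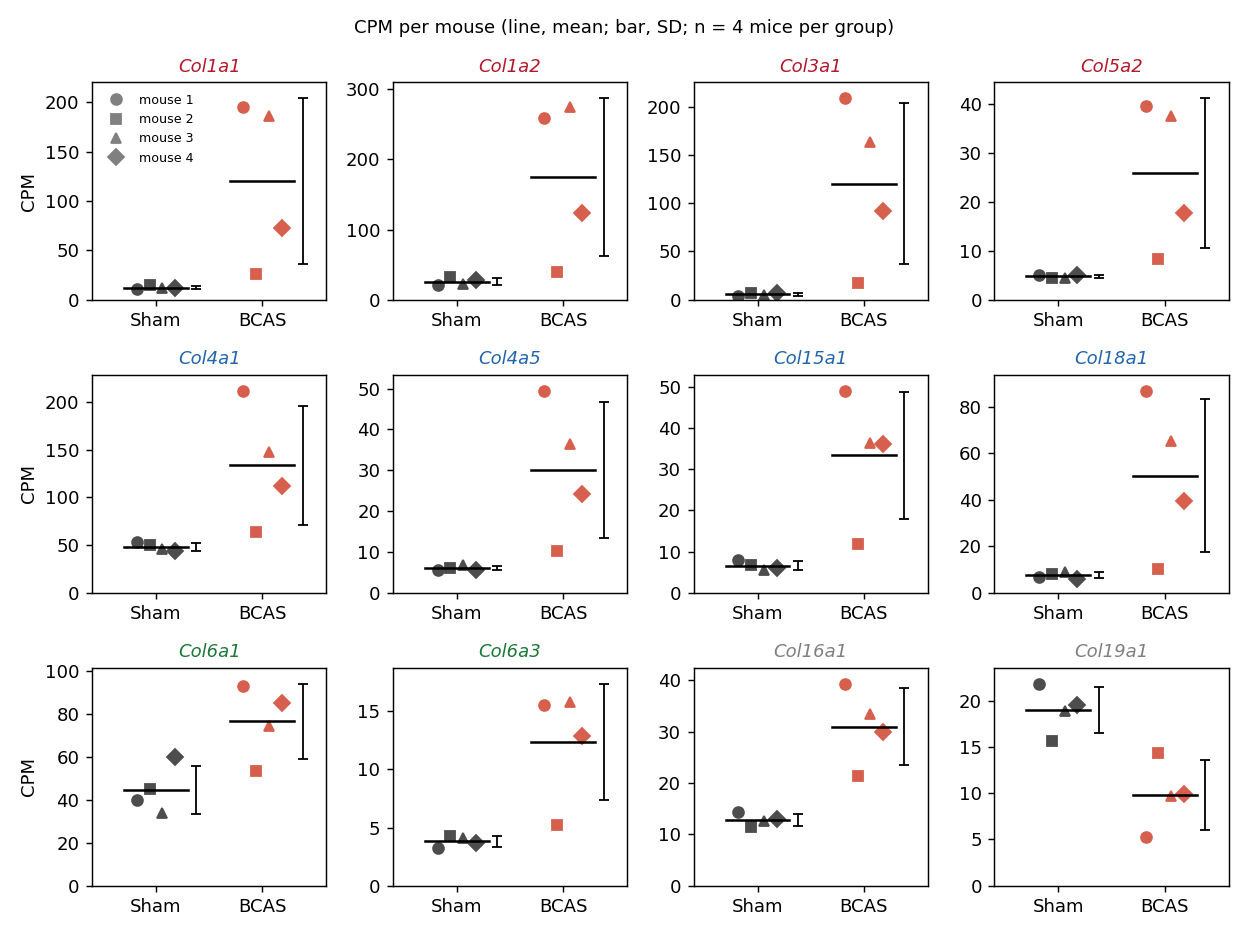
CPM (vertical axes, from 0) of 12 collagen chain genes in each mouse of the Sham and BCAS groups, with the group mean as a line and the SD as a bar (n = 4 mice per group). BCAS mouse 2 is the lowest BCAS point in all panels but that of Col19a1, where it is the highest at 14.4 CPM.

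Of the basement membrane genes, Col4a1 had the highest CPM per kb over all 8 mice and in BCAS mice, and Col4a2 in Sham mice. Together they encode the chains of collagen IV found in nearly all basement membranes. Col4a1 (chromosome 8, 11198423 to 11312826, minus strand) measured 53.2, 50.3, 46.0 and 43.3 CPM in Sham mice and 211.4, 64.0, 147.5 and 111.6 CPM in BCAS mice. The groups were apart, and the log2 fold change was 1.47 ± 0.30 (SE, adjusted p = 0.00988). Col4a2 (chromosome 8, 11312805 to 11449287, plus strand) differed less, at 50.5 to 55.0 CPM in Sham mice and 57.4 to 142.7 CPM in BCAS mice. Its log2 fold change of 0.88 missed the fold threshold, although its adjusted p was 0.0222.

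Col4a5 and Col4a6 encode further collagen IV chains that assemble in a restricted set of basement membranes. Col4a5 measured 5.56, 6.04, 6.74 and 5.66 CPM in Sham mice and 49.3, 10.2, 36.5 and 24.3 CPM in BCAS mice (log2 fold change 2.33 ± 0.41 SE, adjusted p = 0.00567). Col4a6 measured 1.65, 2.74, 2.46 and 2.05 CPM in Sham mice and 22.0, 3.19, 15.6 and 9.90 CPM in BCAS mice (2.51 ± 0.51 SE, adjusted p = 0.00953). Both genes were higher in all 4 BCAS mice than in any Sham mouse. With limma-voom, Col4a6 and Col18a1 missed the threshold, with adjusted p of 0.0518 and 0.0526.

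Col4a3 and Col4a4, chains known from the kidney glomerulus, stayed low, below 3.4 CPM in all libraries. Col4a4 passed only the adjusted p threshold (log2 fold change 0.98, adjusted p = 0.0321), and Col4a3 did not pass (0.26, adjusted p = 0.769). The 6 collagen IV genes form 3 pairs that point away from each other. Col4a1 and Col4a2 share 22 bases at their starts, Col4a4 and Col4a3 lie 71 bases apart, and Col4a6 and Col4a5 lie 1308 bases apart. Within a pair, the log2 fold changes were 1.47 and 0.88, 0.98 and 0.26, and 2.51 and 2.33, respectively.

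The other members of this class, Col15a1 and Col18a1, encode multiplexins, which sit between the basement membrane and the tissue around it. Col15a1 measured 7.94, 6.73, 5.48 and 6.09 CPM in Sham mice and 48.9, 11.9, 36.4 and 36.2 CPM in BCAS mice (log2 fold change 2.35 ± 0.38 SE, adjusted p = 0.0041). Col18a1, whose C-terminal fragment is endostatin, measured 6.92, 8.23, 8.85 and 6.09 CPM in Sham mice and 86.5, 10.1, 65.1 and 39.4 CPM in BCAS mice (2.74 ± 0.54 SE, adjusted p = 0.00863). Both were higher in all BCAS mice, although the lowest BCAS value of Col18a1 was close to the highest Sham value.

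Of the beaded genes, Col6a2 and Col6a3 rose. Col6a1, which had the highest CPM per kb of the class in both groups, measured 39.7, 44.7, 33.6 and 60.0 CPM in Sham mice and 92.8, 53.1, 74.4 and 85.1 CPM in BCAS mice. The groups overlapped through Sham mouse 4 and BCAS mouse 2, and the log2 fold change of 0.78 ± 0.21 (SE, adjusted p = 0.0248) missed the fold threshold. Its partner chain Col6a2 measured 17.5, 15.1, 14.3 and 16.4 CPM in Sham mice and 38.1, 24.1, 43.1 and 39.9 CPM in BCAS mice (log2 fold change 1.20 ± 0.18 SE, adjusted p = 0.00303). Col6a3 measured 3.23, 4.30, 4.11 and 3.68 CPM in Sham mice and 15.6, 5.19, 15.8 and 12.9 CPM in BCAS mice (1.69 ± 0.32 SE, adjusted p = 0.00774). Neither gene overlapped between the groups. Col6a4, Col6a5 and Col6a6 were at most 4.3 CPM and did not pass the test.

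**Figure D3:**
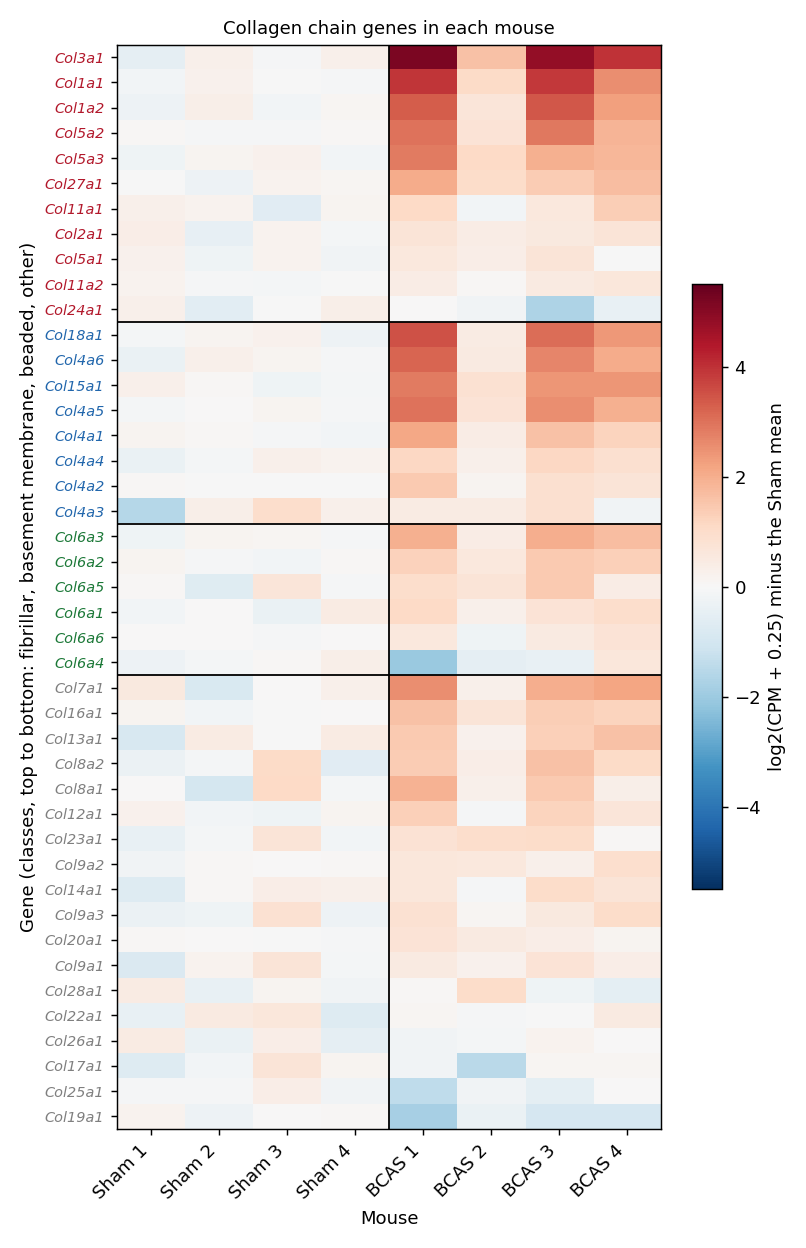
Difference of log2(CPM + 0.25) from the Sham mean (colour) for the 43 tested collagen chain genes (rows, by class) in each of the 8 mice (columns). The Sham columns are pale in most rows, the upper rows of the fibrillar and basement membrane blocks are dark in BCAS mice 1, 3 and 4, and BCAS mouse 2 is paler.

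In the class of other collagens, Col7a1, Col16a1 and Col13a1 rose. Col16a1, a collagen of the fibril-associated kind, measured 14.3, 11.4, 12.6 and 13.1 CPM in Sham mice and 39.3, 21.3, 33.5 and 30.0 CPM in BCAS mice, without overlap (log2 fold change 1.27 ± 0.18 SE, adjusted p = 0.0028). Col7a1, which forms anchoring fibrils below epithelia, measured 2.61, 0.87, 1.77 and 2.17 CPM in Sham mice and 11.4, 2.16, 7.60 and 8.81 CPM in BCAS mice (2.01 ± 0.50 SE, adjusted p = 0.0188). BCAS mouse 2 lay within the Sham range for this gene. Leaving out Sham mouse 2 gave an adjusted p of 0.0531 for Col7a1, and limma-voom gave 0.0576.

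Col13a1, a transmembrane collagen, measured 0.79, 2.37, 1.66 and 2.41 CPM in Sham mice and 5.04, 2.01, 4.58 and 5.66 CPM in BCAS mice, with overlap at BCAS mouse 2 (log2 fold change 1.26 ± 0.41 SE, adjusted p = 0.0432). Its call was lost under 10 of 18 alternatives, among them the omission of any 1 mouse other than BCAS mouse 2 (adjusted p from 0.00656 to 0.106 over all 18).

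Col25a1, a transmembrane collagen of neurons, was the member of this class with the highest CPM per kb over all 8 mice and in Sham mice (5.37), but in BCAS mice (3.90) it lay below Col9a3 (4.89), Col16a1 (4.59) and Col23a1 (4.01), with overlap between neighbours in this order. That order turned with the length used, as per kb of 1 transcript Col25a1 was at 19.2 in BCAS mice, above Col9a3 (6.19), Col16a1 (5.95) and Col23a1 (4.07). It measured 65.4, 64.8, 88.1 and 59.7 CPM in Sham mice and 25.8, 60.8, 46.6 and 68.8 CPM in BCAS mice. The groups overlapped, with BCAS mice 1 and 3 below the Sham mice and BCAS mice 2 and 4 within the Sham range, and the gene did not pass (log2 fold change -0.46 ± 0.27 SE, adjusted p = 0.207). Col19a1, which is made by neurons in the brain, measured 21.8, 15.7, 18.9 and 19.6 CPM in Sham mice and 5.21, 14.4, 9.70 and 9.90 CPM in BCAS mice. All BCAS mice were below all Sham mice, and the log2 fold change of -0.96 (adjusted p = 0.0265) missed the fold threshold. It passed both thresholds with limma-voom (-1.06) and without Sham mouse 2 (-1.04) or BCAS mouse 2 (-1.19).

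Col9a2, Col12a1 and Col20a1, all fibril-associated, were higher at the adjusted p threshold alone, with log2 fold changes of 0.63, 0.89 and 0.47. The remaining tested genes of this class did not pass. Col8a1, Col8a2, Col9a3 and Col23a1 were each highest among Sham mice in mouse 3, the mouse with the high choroid plexus markers, at 10.9, 8.62, 21.2 and 22.1 CPM. So were Col9a1, Col10a1, Col14a1, Col17a1, Col22a1 and Col25a1 of this class. Without that mouse, Col8a2 was called (log2 fold change 1.58, adjusted p = 0.0195), and Col9a3 (0.96, adjusted p = 0.0227) and Col23a1 (0.98, adjusted p = 0.0276) passed the adjusted p threshold. Col8a2 was also called with all 8 mice by DESeq2 (1.06) and with the replicate number as a block (1.14), and without BCAS mouse 2 (1.27). The part of choroid plexus RNA in these values was not tested. Col10a1, a chain of hypertrophic cartilage, was the member that could not be tested, with 0, 0, 21 and 2 counts in Sham mice and 44, 9, 12 and 8 counts in BCAS mice.

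Of the 16 genes that rose, 14 did not overlap between the groups, all 16 were lowest in BCAS mouse 2, and 12 were highest in BCAS mouse 1. The order BCAS mouse 1, 3, 4, 2 was found for 10 of them. These counts lie within genes already called higher, and the same counts over all genes called higher were not made. BCAS mouse 2 also mattered beyond the collagen genes, as 2967 genes in all were called without it, against 2097 with it. In all, 14 of the 16 were called in every fit that left out 1 mouse, the exceptions being Col7a1 and Col13a1, and 12 were called under all 18 alternatives for which fold changes were refitted. At most 1.44% of the exon bases of any of the 16 are shared with another gene.

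Summed over all 44 genes, the collagen level was 487.9, 476.6, 523.1 and 485.4 CPM in Sham mice, compared with 1789, 618.3, 1562 and 1109 CPM in BCAS mice. This is 0.0456% to 0.0521% of the counts in Sham mice, compared with 0.187%, 0.0625%, 0.159% and 0.117% in BCAS mice. The fibrillar sum had the largest ratio of group means (4.95-fold), followed by the basement membrane (2.88-fold), beaded (1.896-fold) and other (1.26-fold) sums. These sums rest mostly on the most abundant genes of each class, and no test was made of them.

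**Figure D4:**
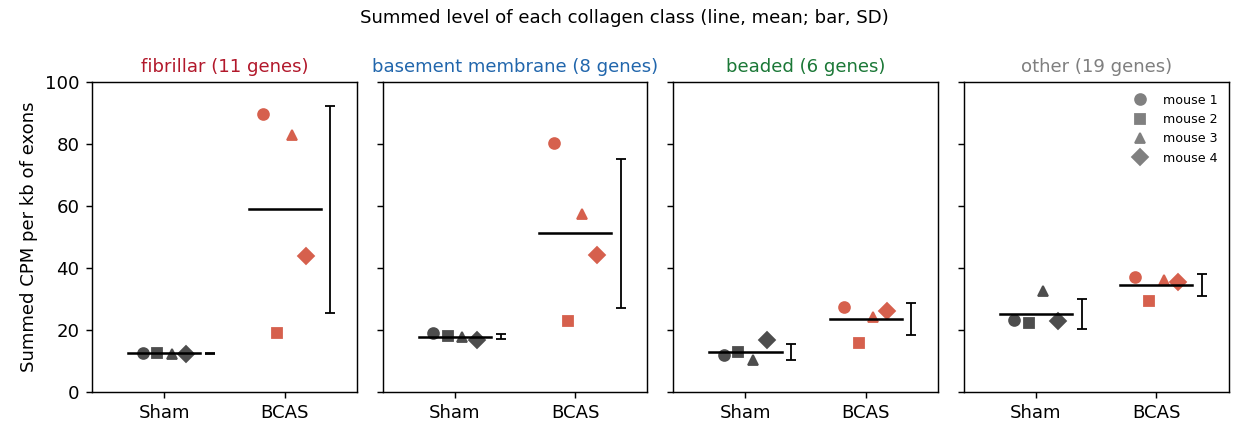
Summed CPM per kb of exons (vertical axis, from 0) of each collagen class in each mouse, with the group mean as a line and the SD as a bar (n = 4 mice per group). The fibrillar sum lies between 12.1 and 12.6 in Sham mice and between 18.9 and 89.9 in BCAS mice, whereas the sums of the beaded and other classes overlap between the groups.

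Levels of different genes were compared per kb of length. Per kb of all exon bases of a gene, the highest members in Sham mice were Col6a1 (10.2 CPM per kb), Col4a2 (7.87), Col4a1 (6.46) and Col25a1 (5.37). The mice of Col6a1 and Col4a2 overlapped in this order, and those of Col4a2 and Col4a1 did not. In BCAS mice the highest were Col1a1 (18.3), Col4a1 (17.9), Col6a1 (17.4), Col4a2 (14.5), Col1a2 (14.0) and Col3a1 (12.3). The mice overlapped between each gene and the next in this order, and in BCAS mouse 2 Col1a1 was at 3.98 and Col3a1 at 1.80 CPM per kb, below Col6a1 at 12.1. By its mean, Col3a1 moved from rank 23 to rank 6. The share of the fibrillar class in the summed CPM per kb went from 18.2% ± 1.12 to 32.7% ± 8.90 (SD, n = 4), and that of the other class from 36.7% ± 5.49 to 22.8% ± 7.98. The order depended on the length used. Per kb of the single transcript with the longest coding sequence, Col25a1 ranked first in Sham mice (26.5 CPM per kb), ahead of Col6a1 (10.9) and Col4a2 (8.08), and Col1a2 (32.6), Col3a1 (21.6) and Col1a1 (20.3) ranked at the top in BCAS mice.

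The ratios between chains are given per mouse and were not tested. The ratio of Col1a1 to Col1a2, in CPM per kb of exons, was 1.02, 0.87, 1.03 and 0.82 in Sham mice, compared with 1.43, 1.23, 1.28 and 1.13 in BCAS mice. The ratio of Col3a1 to Col1a1 was 0.24, 0.31, 0.30 and 0.38 in Sham mice, compared with 0.71, 0.45, 0.59 and 0.84 in BCAS mice. For Col4a1 to Col4a2 it was 0.86, 0.87, 0.81 and 0.74 in Sham mice, compared with 1.31, 0.99, 1.35 and 1.16 in BCAS mice. In all 3 ratios the BCAS mice were above the Sham mice, and so they were in Col5a2 to Col5a1, with means of 0.215 and 0.817. The ratios of Col4a5 to Col4a6, Col6a1 to Col6a2, Col6a1 to Col6a3 and Col8a1 to Col8a2 overlapped between the groups. Another choice of length multiplies a ratio by the same factor in every mouse and leaves the direction as it is. With transcript length, for example, the mean of Col1a1 to Col1a2 was 0.445 in Sham and 0.604 in BCAS mice.

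**Figure D5:**
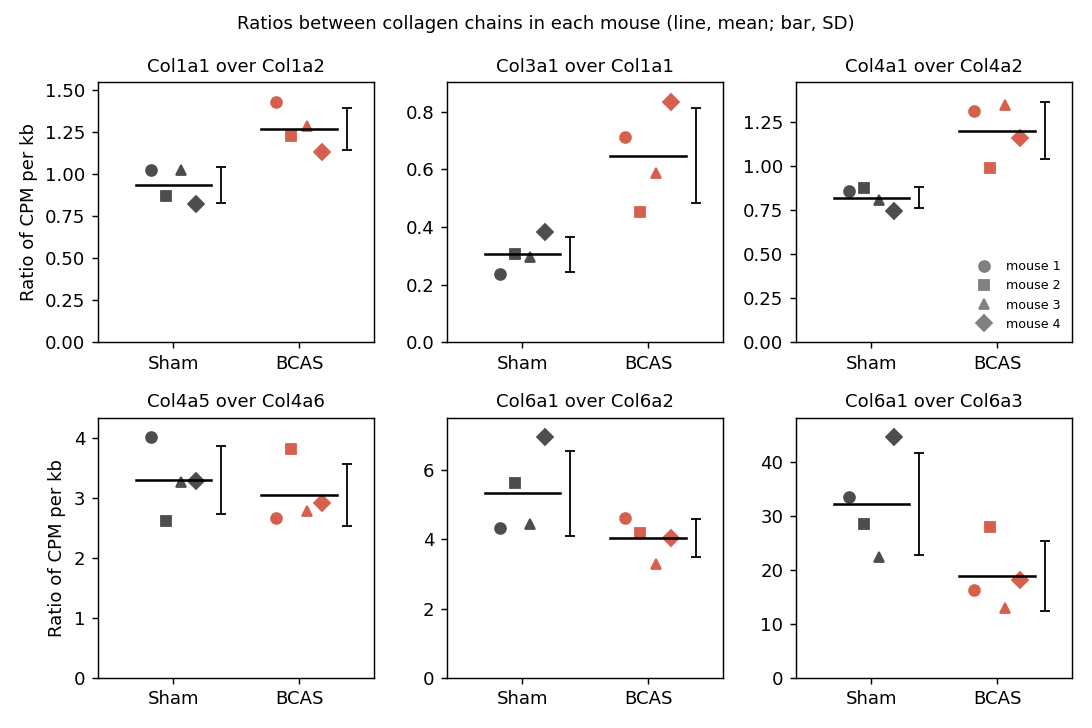
Ratio of CPM per kb (vertical axes, from 0) between 2 collagen chains in each mouse, with the group mean as a line and the SD as a bar (n = 4 mice per group). In the upper row all BCAS points lie above all Sham points, and in the lower row the groups overlap.

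Other genes of the collagen pathway were counted in 7 lists. In all, 52 of 89 tested list genes rose and 0 fell in edgeR's test, to be read against the 11.0% of all tested genes called higher. At an unadjusted p under 0.05 in edgeR, 75 were higher and 0 lower, a setting without a count over all genes. DESeq2 called 53 higher and 0 lower (1948 and 270 of all genes). With glmTreat, 17 higher and 0 lower passed (739 and 5 of all genes). Of the enzymes and chaperones that fold and hydroxylate collagen chains, 8 of 19 rose, with a median log2 fold change of 0.86. P4ha3, a subunit of prolyl 4-hydroxylase, rose by 2.62 on the log2 scale, Serpinh1, the collagen chaperone HSP47, by 1.85, and Plod1, a lysyl hydroxylase, by 1.68. Of the genes for procollagen processing and cross-linking, 6 of 12 rose (median 1.26). Lox, the lysyl oxidase that cross-links collagen, measured 0.62, 1.31, 0.86 and 1.57 CPM in Sham mice and 43.9, 6.07, 34.2 and 16.0 CPM in BCAS mice (log2 fold change 4.53, adjusted p = 0.0028). The related Loxl2 (3.25) and the procollagen peptidase Adamts14 (2.92) rose as well.

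Of the collagen degradation genes, 6 of 11 rose (median 1.81). Mmp3, the metalloproteinase stromelysin, had 0 counts in all Sham mice and 748, 76, 518 and 203 counts in BCAS mice. By the group mean, this is at least 106.6-fold higher against a mean level of 3 counts per Sham library. Timp1, a metalloproteinase inhibitor, rose by 3.85 and Mrc2, an endocytic collagen receptor, by 2.50 on the log2 scale. Of the collagen receptors, 8 of 11 rose (median 1.28), among them Cd44 (4.21), the inhibitory immune receptor Lair1 (2.93) and the syndecan Sdc1 (2.11).

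Of the fibril-associated matrix proteins, 12 of 14 rose (median 1.70), led by the proteoglycans Lum (3.13) and Dcn (2.74) and by Thbs1 (2.94), a matricellular protein. Of the basement membrane partners of collagen IV, 8 of 13 rose (median 1.04), led by Nid1 (2.29), which links laminin to collagen IV, the laminin chain Lama1 (1.53) and the proteoglycan Hspg2 (1.47). Of the ligands, receptors and binding proteins of TGF-beta, an inducer of collagen synthesis, 4 of 9 rose (median 0.87). Tgfb1, a ligand, measured 9.19, 6.36, 6.62 and 7.77 CPM in Sham mice and 118.3, 26.1, 79.8 and 66.8 CPM in BCAS mice (log2 fold change 3.28, adjusted p = 0.00203). The receptor Tgfbr2 (2.66) and the binding protein Ltbp2 (3.58) rose too, whereas the other ligands of the list passed neither threshold. Ltbp2 and Thbs1 overlapped between the groups.

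Levels of cell type markers were summed in each mouse beside these results, and their counts are to be read against the 11.0% of all tested genes called higher and the 19.2% higher at an adjusted p alone. Of the fibroblast markers of meninges and vessels, 5 of 9 tested rose, with sums of 131.1 to 156.8 CPM in Sham mice and 278.2, 189.3, 272.0 and 249.97 CPM in BCAS mice 1 to 4. Of the pericyte markers 1 of 8 rose, and 5 were higher at an adjusted p under 0.05 alone, with sums of 290.5 to 345.2 CPM in Sham mice and 577.3, 364.1, 479.5 and 452.2 CPM in BCAS mice 1 to 4. Both sums had the order of BCAS mice found for 10 of the collagen genes, and the sums of endothelial, microglial, astrocyte and oligodendrocyte markers were likewise highest in BCAS mouse 1 and lowest in BCAS mouse 2. Of the smooth muscle and endothelial markers 0 of 5 and 0 of 8 rose in edgeR's test (0 and 2 were higher at an adjusted p under 0.05 alone, and as many at an unadjusted p under 0.05). The endothelial sums were 299.6 to 390.3 CPM in Sham mice and 530.4, 365.2, 376.1 and 459.1 CPM in BCAS mice 1 to 4. All 6 markers of microglia and macrophages rose, from sums of 225.4 to 273.1 CPM in Sham mice to 2592, 742.8, 1328 and 1410 CPM in BCAS mice 1 to 4. Of the astrocyte markers 2 of 6 rose, with sums of 4466 to 5146 CPM in Sham mice and 8997, 5980, 7808 and 8189 CPM in BCAS mice 1 to 4. The oligodendrocyte sums were 3770 to 6067 CPM in Sham mice and 8165, 5267, 6934 and 6936 CPM in BCAS mice 1 to 4, with overlap. The red blood cell sums did not overlap, at 59.2 to 80.6 CPM in Sham mice and 94.4 to 123.4 CPM in BCAS mice, although 0 of 5 markers were called by edgeR (2 were higher at an adjusted p under 0.05 alone). The sum of 8 excitatory neuron markers was 2084 to 2375 CPM in Sham mice and 662.5, 1806, 1354 and 1080 CPM in BCAS mice 1 to 4, lowest in the mouse in which most of the 16 collagen genes were highest. Of the bone and cartilage markers 0 of 3 tested rose (0 at an unadjusted p under 0.05), and Bglap, osteocalcin, was at 0 in 7 libraries. The part of these cell types in the collagen values was not tested.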

How the data were processed

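Paired-end RNA-seq of 4 Sham and 4 BCAS mice was used, grouped by the treatment in the labels. According to the methods and labels, the authors trimmed reads with Trim Galore, aligned them to mm10 with HISAT2, sorted them with SAMtools 1.9, and counted read pairs per gene with featureCounts. The deposited values are raw counts per gene for each library, without normalization. The file headers name featureCounts 2.0.1 and GENCODE vM20 with no strand option, whereas the methods name version 1.6.3 and RefSeq genes. Symbols came from GENCODE vM21 by gene ID, and 54723 of 54752 IDs matched, including all 44 members. Members and lists were chosen with earlier results of these data known.

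Counts were tested by the quasi-likelihood method of edgeR 4.0.16 (R 4.3.3), with no covariates, after TMM scaling (factors 0.949 to 1.05) and filterByExpr (minimum count 10, minimum total 15). Benjamini-Hochberg adjustment covered the 17136 genes tested, and a called gene had an adjusted p under 0.05 with a log2 fold change above 1 in size. The procedure was tested on simulated data. Totals of 16759364 to 21794435 counts per library set the precision, and the level of 3 counts covers counting error only. CPM per kb used all merged exon bases of a gene in the tables. The length of the transcript with the longest coding sequence, from GENCODE vM21, was an alternative chosen after the data were seen. Promoter windows of 35 members came from RefSeq on GRCm38.p6, the same assembly as mm10. Alternatives were 3 normalizations, 2 filters, DESeq2 1.42.0, limma-voom and limma on log2(CPM + 1) from limma 3.58.1, robust edgeR, the replicate number as a block, leaving out each mouse, and 2 thresholds.

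Full statistics were given for called members and, in each class, for the tested member with the highest mean CPM per kb. From each list, at most the 3 called genes with the largest absolute log2 fold change and a mean of at least 20 counts were named. Slc17a7 and Bglap were named as a defining marker and as a marker at 0.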

Additional observations from a re-analysis of the deposited data

Results flagged for a closer look

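Each group of 4 mice was searched for a mouse that lay far from the other 3, by Dixon's criterion which sets the gap to the nearest mouse against the range of the group. This was met in 4 of 98 groups, and chance alone gives about 1 in 20. Col9a2 was lowest in Sham mouse 1, at 6.70 CPM against 7.94 to 8.16 CPM in the other Sham mice. Col9a3 was highest in Sham mouse 3, at 21.2 CPM against 9.42 to 9.85 CPM. Col10a1 was highest in Sham mouse 3, at 1.20 CPM against 0 to 0.121 CPM, and in BCAS mouse 1, at 1.93 CPM against 0.435 to 0.647 CPM. Sham mouse 3 is the mouse with the high choroid plexus markers.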

How the results depend on the processing

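Over the 18 alternatives in which fold changes were refitted, 733 of 769 gene values kept their direction and their call (both thresholds together), 14 lost a call, 14 gained one and 8 changed sign. The sign changed for Col26a1 (0.009 with library size alone, and -0.23 to 0.0878 when 1 mouse was left out), Col4a3 (-0.14 to 0.72 when 1 mouse was left out), Col22a1 (-0.19 to 0.28) and Col28a1 (-0.30 to 0.45), none of which passed the test. The cause was not tested.

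Leaving out 1 mouse gave 15 to 22 called collagen genes, 22 without BCAS mouse 2, and 1644 to 2967 genes in all. By class it gave 6 to 7 fibrillar, 5 to 7 basement membrane, 2 to 3 beaded and 2 to 6 other genes (6 without BCAS mouse 2), and 47 to 60 list genes. The ratios of summed CPM ranged from 2.22 to 3.01 for all collagen genes, 4.09 to 6.09 for fibrillar, 2.33 to 3.41 for basement membrane, 1.79 to 2.11 for beaded and 1.21 to 1.37 for other genes. With limma-voom, 3 basement membrane genes were called. At an adjusted p under 0.05 alone, 7 other collagen genes and 5490 genes in all passed. With glmTreat, 8 collagen genes, 3 basement membrane genes, 0 beaded genes, 0 other collagen genes, 17 list genes and 744 genes in all passed, since it tests a larger fold change.

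The replicate numbers did not pair the mice (correlations of the deviations of same-numbered mice -0.0455, -0.103, -0.00821 and 0.00126, and 0 of 4 BCAS mice correlated best with their own number), and with the number as a replicate block 16 collagen genes and 1809 genes in all were called. With 3 counts worth up to 0.187 CPM, genes near 1 CPM such as Col4a3, Col6a5 and Col17a1 rest on few counts. The p-values set the difference between the groups against the spread between 4 mice per group, estimated with information shared across genes.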
